A study of Mus musculus with 12 samples.

Results

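The 33 genes described here encode the folding machinery of the endoplasmic reticulum (ER), the sensors of the unfolded protein response and the enzymes of ER-associated degradation. They were taken by name from a fixed list, all 33 were found among the 35434 genes of the count table, and all 33 passed the filter on low counts that left 15269 genes for testing. RNA was sequenced from 12 tumours of 4T1 cells, a mouse triple-negative breast cancer line, grown under the skin of female BALB/c mice aged 6 to 8 weeks, with 1 tumour per mouse and 3 mice in each of 4 groups. HI mice lived in a low-pressure chamber set to 3500 m and were injected with IOX2, an inhibitor of the oxygen-sensing prolyl hydroxylase PHD2 (encoded by Egln1). HC mice lived in the same kind of chamber and were injected with vehicle. MI mice were kept at the ambient altitude of about 1500 m and were injected with IOX2, and MC mice were kept at ambient altitude and were injected with vehicle. Injections into the abdomen, at 10 mg/kg for IOX2, were daily for 10 days from day 9 after inoculation, and tumours were taken on study day 22. The study also had 3 days of acclimatization, so study day and day after inoculation may not be the same count. The title places the study in the question of whether altitude hypoxia acts on tumour growth through PHD2 and ferroptosis. The 33 genes give mRNA levels of the ER folding machinery in the same tumours, and protein folding itself was not measured. Only mice of the HI and HC groups were housed in a chamber, so altitude and chamber housing cannot be told apart.

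Proteins that are secreted or placed in membranes enter the ER through a translocation channel, where chaperones, disulfide isomerases and sugar-binding lectins help them to fold, and those that fail are returned to the cytosol and destroyed. When unfolded proteins build up, the sensors IRE1 (Ern1), PERK (Eif2ak3) and ATF6 (Atf6) start the unfolded protein response. ATF6 and the spliced form of Xbp1 raise transcription of chaperone and degradation genes, while PERK slows translation and favours Atf4. Gene counts do not separate spliced from unspliced Xbp1 mRNA, so activity of IRE1 was not measured here.

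ATF6 and XBP1 are known to act through the ER stress element, which reads CCAAT, 9 bases of any kind, then CCACG. A short form reads ATTGG, 1 base of any kind, then CCACG. Both were searched on both strands of RefSeq promoter windows (mouse build GRCm38.p6) that run from 250 bases before to 50 after each gene's start. Of the 33 genes, 27 had a window. The element was found in 9 of the 27 (Hspa5, Hsp90b1, Calr, Canx, Pdia6, Creld2, Dnajc3, Syvn1 and Derl3), against 0.119% of all 32851 windows. The short form was found in 2 further genes, Herpud1 and Dnajb11, against 0.0365% of all windows. The UPR element TGACGTGG was found in Sec24d alone among the 27, against 0.676% of all windows. Sequences are shown only where a gene whose levels are given below in every tumour had a match. They carry the DNA letters on which this pathway's regulation is known to rest. Of the other genes given in every tumour, Xbp1, Dnajb9, Sdf2l1, Edem1, Sec61b, Ern1 and Eif2ak3 had a window without any of these elements. Manf and Atf6 had no window. Capitals mark the matched element, each sequence is read 5′ to 3′ in the direction of its gene, and an element on the opposite strand reads as CGTGG, 9 bases, then ATTGG. Hsp90b1 had 2 elements, facing opposite ways. The stretches lie at chr2:34772015-34772053 (plus strand) for Hspa5, chr10:86705523-86705666 (minus strand) for Hsp90b1, chr8:84847065-84847103 (minus strand) for Calr, chr14:118937817-118937855 (plus strand) for Dnajc3, chr10:75893232-75893270 (plus strand) for Derl3, chr8:94386367-94386397 (plus strand) for Herpud1 and chr3:123267460-123267487 (plus strand) for Sec24d.
Hspa5: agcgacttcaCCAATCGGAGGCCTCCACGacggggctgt
Hsp90b1: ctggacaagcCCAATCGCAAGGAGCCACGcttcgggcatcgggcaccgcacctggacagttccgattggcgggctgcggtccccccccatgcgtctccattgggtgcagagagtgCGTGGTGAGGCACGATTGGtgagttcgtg
Calr: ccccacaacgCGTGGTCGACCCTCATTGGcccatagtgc
Dnajc3: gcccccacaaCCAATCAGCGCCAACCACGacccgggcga
Derl3: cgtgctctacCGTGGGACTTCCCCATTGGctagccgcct
Herpud1: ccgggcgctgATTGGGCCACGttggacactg
Sec24d: cccgggcgccTGACGTGGcactagcaac

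Sequencing depth was between 31661685 and 40019343 counts a library. Krt8, Krt18 and Epcam, the defining epithelial markers, were present in every library, with at least 888 CPM of Krt8 (CPM, counts scaled to library size with TMM factors). Library MI1 stood apart by B-cell genes, with all 8 B-cell markers at their highest of the 12 libraries and a summed level of 153 CPM, against 3.18 to 7.65 CPM in the other 11. Library MI3 stood apart by gene composition, where the genes of lowest GC content (the bottom 25% of those tested) had a median of 0.39 (log2) above their own means and a mitochondrial share of 2.96%, against 1.61% to 2.14% elsewhere. MC3 leaned the other way, with the same genes at -0.14. MI1 and MI3 touch many results below, and log2 changes computed without them are given where these turned direction or moved most.

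Measured per length, the 33 genes ranged from rank 99 to rank 12012 of the 24312 genes with any count. Hspa5, which encodes BiP, the main ER chaperone, had the highest mean over the 12 tumours, 574 FPKM (fragments scaled by gene length and library total), at rank 99. Calr followed at 508 FPKM, P4hb at 363 FPKM, Hsp90b1 at 331 FPKM and Pdia3 at 315 FPKM. The sensors stood near the other end, with 11.8 FPKM for Atf6, 8.91 FPKM for Ern1 and 6.41 FPKM for Eif2ak3, and Derl3 was last at 0.748 FPKM. Xbp1, the transcription factor downstream of IRE1, was well above the sensors at 83.8 FPKM. Over the 12 libraries, Derl1 varied least, with a coefficient of variation of 4.12%, and Derl3 (243%), Dnajb9 (43.3%) and Hspa13 (40.0%) varied most.

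No member of the 33 passed an adjusted p of 0.05 by edgeR's quasi-likelihood test in any of the 7 comparisons. Over all genes, that test called 0.0% in HI against MI, 0.0262% in MI against MC, 0.0% in HC against MC, 0.0% in HI against HC, 0.0% in the interaction, 0.498% for altitude averaged over both treatments and 0.0393% for IOX2 averaged over both altitudes, so few genes of any kind were called. Most of the 33 lay on the same side of 0 in several comparisons. In HI against MI, 30 of 33 had a log2 change below 0, against 52.2% of all genes, with a median of -0.18 against -0.01 for all genes tested. An unadjusted p under 0.05 on the lower side was reached by 11 of them, against 8.43% of all genes, and 6 had every HI library below every MI library, against 6.61%. The smallest adjusted p of any member in this comparison was 0.193 (edgeR). In MI against MC, 26 of 33 were above 0, against 50.8% of all genes, with a median of 0.15 against 0.0050 for all genes tested. Of these 33, 6 reached an unadjusted p under 0.05 on the higher side, against 5.61% of all genes, and Pdia3 and Eif2ak3 had every MI library above every MC library, against 4.75%. The 2 comparisons share the MI libraries.

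With vehicle the genes showed no common direction at altitude. In HC against MC, 18 of 33 were below 0, against 52.2% of all genes, with a median of -0.01. Of these, 1 had an unadjusted p under 0.05 on the lower side, Sdf2l1, against 5.84% of all genes, and 3 had every HC library below every MC library (Sdf2l1, Pdia6 and Ssr2), against 11.4%. In HI against HC, 25 of 33 were below 0, against 49.6% of all genes, with a median of -0.06. Herpud1 alone had an unadjusted p under 0.05 on the lower side, against 2.51% of all genes, and 6 had every HI library below every HC library (Calr, Herpud1, Hsp90b1, Hspa5, Hyou1 and Manf), against 5.61%. Every library of the HI group had a median of the 33 genes below their own means, at -0.09, -0.12 and -0.06 (log2). The HC libraries were also below 0, at -0.05, -0.0055 and -0.0064, and MC3 at -0.10 was lower than HI1 and HI3. Of the 33, 17 had their lowest level of the 12 libraries in an HI tumour, against 24.8% of all genes. HI1 held 10 of these lowest levels, against 13.2% of all genes. Atf6 alone had its highest level in an HI tumour, against 20.6% of all genes. Tumours were sequenced as pieces of tissue, so fewer cells of a type and less RNA per cell cannot be told apart.

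**Figure D1:**
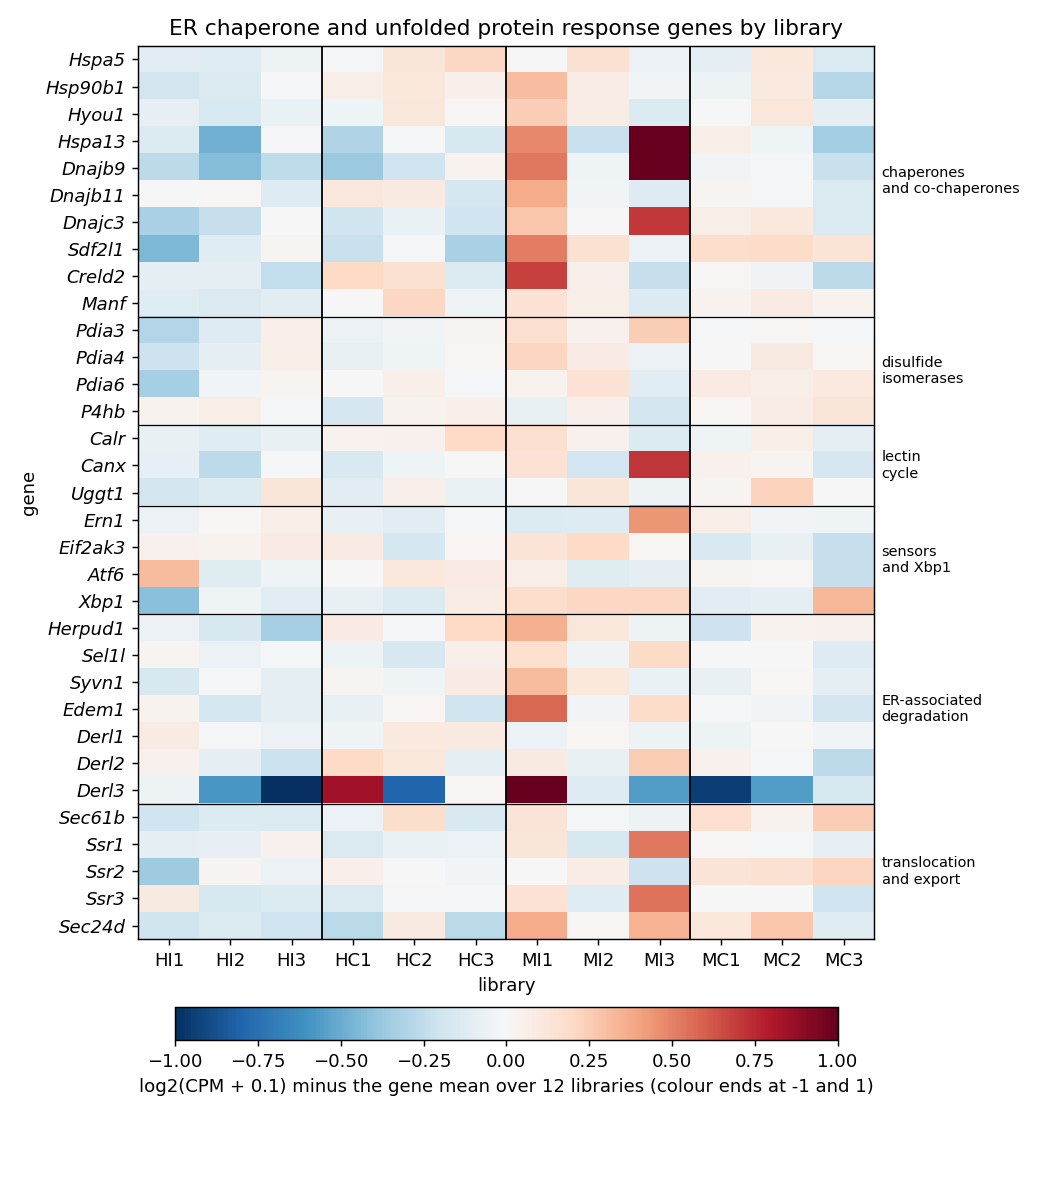
Levels of the 33 genes in the 12 libraries, as log2(CPM + 0.1) centred on the mean of each gene, with rows grouped by role and columns by group. Red fields gather in MI1 and MI3, and the HI columns are mostly pale blue. MI1 and MI3 held the highest value of 11 and 10 genes, against 11.5% and 20.1% of all genes.

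Among the 10 chaperones and co-chaperones, every log2 change in HI against MI was below 0, between -0.99 and -0.13, with a median of -0.30, although Dnajb11 stood at 0.02 without MI1 and Hspa13 at 0.01 with neither MI1 nor MI3. Dnajb9, a co-chaperone of BiP that restrains IRE1, had 45.1, 40.0 and 45.2 CPM in HI tumours and 41.6, 46.9 and 55.4 CPM in HC tumours. It had 77.9, 52.3 and 129 CPM in MI tumours, against 52.9, 53.4 and 46.1 CPM in MC tumours. All 3 HI values lay below all MI values, but MI2 was within the range of the MC tumours, and MI3 was the highest of the 12 libraries. The log2 change was -0.99 ± 0.25 in HI against MI (SE; edgeR, unadjusted p = 0.00196, adjusted p = 0.193) and 0.77 ± 0.25 in MI against MC (adjusted p = 0.492). DESeq2 called Dnajb9 in HI against MI, at a log2 change of -1.01 and an adjusted p of 0.0138, where it called 2.5% of all genes. Without MI2, edgeR called it (adjusted p = 0.0159) along with Dnajc3 (adjusted p = 0.0356), Hspa13 (adjusted p = 0.0328) and 3.34% of all genes. In the altitude average, edgeR called it without MI2 (adjusted p = 0.0407) along with 1.3% of all genes. Without MI3 the log2 change in HI against MI was -0.59, and with neither MI1 nor MI3 it was -0.28. With neither, the value in MI against MC was 0.06.

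Dnajc3, the co-chaperone p58IPK, which also inhibits PERK, had 117, 125 and 147 CPM in HI tumours and 128, 141 and 128 CPM in HC tumours. MI tumours had 178, 147 and 239.5 CPM, and MC tumours had 153, 158 and 133 CPM. HI and MI did not overlap, but HI3 and MI2 were almost level, and the high MI values were again MI1 and MI3. Its log2 change was -0.54 ± 0.16 in HI against MI (SE; edgeR, adjusted p = 0.216), and -0.19 with neither MI1 nor MI3. Hspa13, an ATPase of the same family as BiP, followed the same outline and was chosen for mention after its values were seen. It had 75.8, 59.5 and 82.2 CPM in HI tumours, against 116, 71.2 and 189 CPM in MI tumours, and its log2 change of -0.79 became 0.01 with neither MI1 nor MI3.

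Hspa5 had 1384, 1377 and 1446 CPM in HI tumours, 1488, 1628 and 1726 CPM in HC tumours, 1499.6, 1665 and 1437 CPM in MI tumours, and 1409.5, 1607 and 1353 CPM in MC tumours. Every HI tumour was below every HC tumour, while HI overlapped MI and HC overlapped MC. The log2 change was -0.20 ± 0.09 in HI against HC (SE; edgeR, unadjusted p = 0.0504, adjusted p = 0.964) and 0.15 ± 0.09 in HC against MC (adjusted p = 0.567). Hsp90b1, which encodes GRP94, the HSP90 of the ER, had 800.5, 822 and 895 CPM in HI tumours and 947, 977 and 942 CPM in HC tumours. It had 1122, 954 and 889 CPM in MI tumours and 878, 971 and 744 CPM in MC tumours. Here too the HI and HC tumours did not overlap, and the log2 change was -0.19 ± 0.11 (SE; edgeR, adjusted p = 0.964). MI1 held the highest value of Hsp90b1 and MC3 the lowest.

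Manf, a secreted factor kept in the ER with BiP, had 139, 136 and 140.1 CPM in HI tumours. It had 151, 174 and 146 CPM in HC tumours, 167, 157 and 137 CPM in MI tumours and 155, 159.6 and 155 CPM in MC tumours. The HI values lay below all HC and MC values but overlapped MI through MI3, and the log2 change in HI against HC was -0.18 ± 0.09 (SE; edgeR, adjusted p = 0.964). Sdf2l1, a small partner of the BiP co-chaperones, averaged less at altitude with either treatment. It had 19.3, 24.1 and 26.8 CPM in HI tumours and 22.5, 26.1 and 20.9 CPM in HC tumours. It had 37.5, 29.2 and 25.2 CPM in MI tumours and 29.7, 29.8 and 28.9 CPM in MC tumours. All HC values lay below all MC values, and HI and MI overlapped through MI3. Averaged over both treatments, its altitude log2 change was -0.37 ± 0.11 (SE; edgeR, adjusted p = 0.133), and DESeq2 called it (adjusted p = 0.0392) along with 5.67% of all genes. The remaining 3 chaperone genes, Hyou1 (a nucleotide exchange factor of BiP), Dnajb11 (a BiP co-chaperone) and Creld2, had log2 changes of -0.17, -0.13 and -0.36 in HI against MI, and all had their highest level in MI1. Without MI1, the value of Hyou1 was -0.09 and that of Dnajb11 was 0.02. Creld2, a factor induced by ER stress, had 52.9 CPM in MI1 and 27.4 to 37.7 CPM elsewhere, and its log2 change was -0.08 without MI1.

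**Figure D2:**
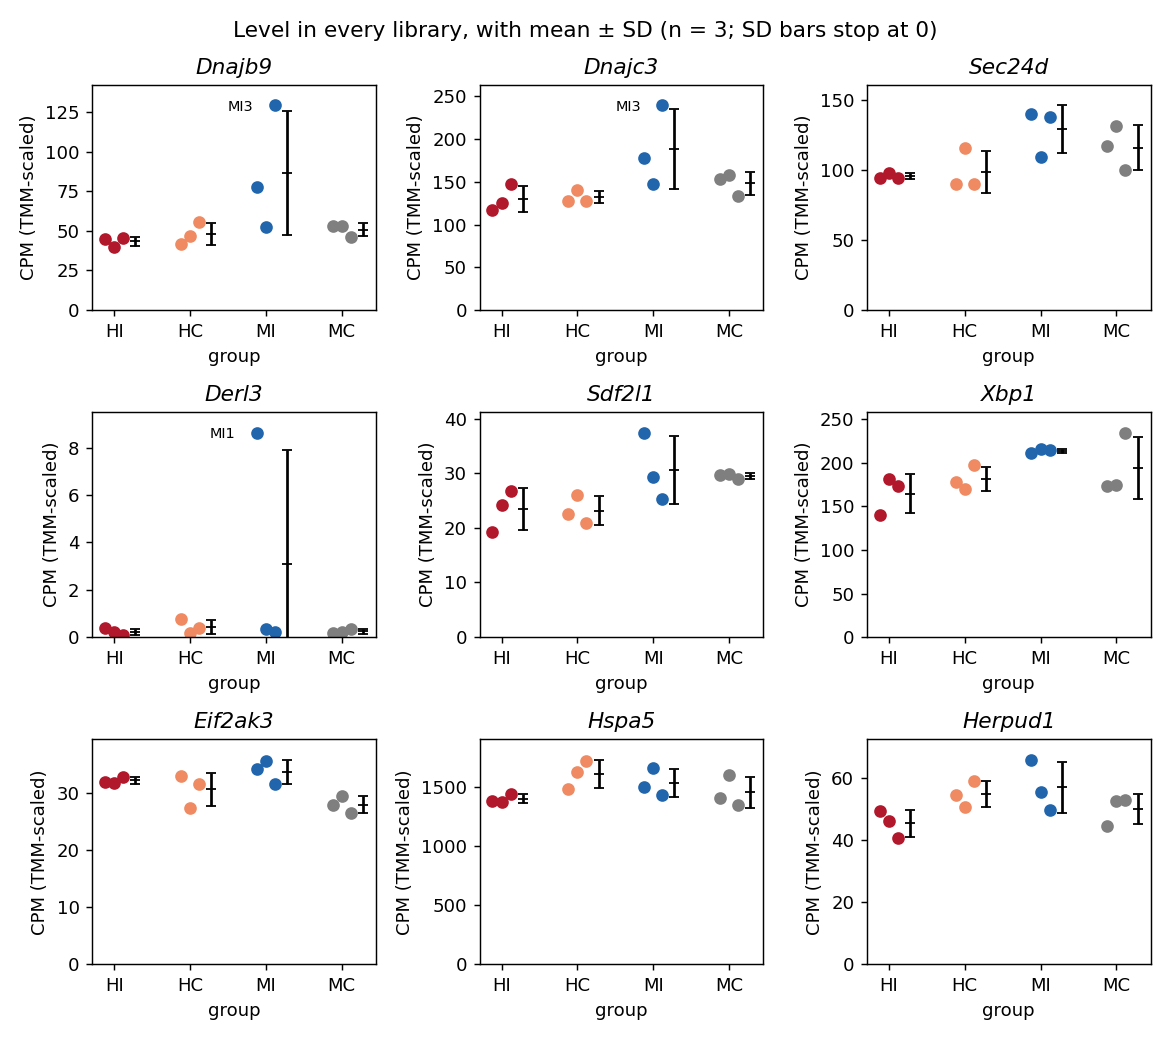
TMM-scaled CPM of 9 genes in each tumour (points) by group, with the mean and SD of 3 tumours (black bars). MI1 holds the only high value of Derl3 and MI3 the highest of Dnajb9, while Xbp1 is even within MI at 211 to 215 CPM.

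The 4 disulfide isomerases, which form and reshuffle disulfide bonds, had a median of -0.14 (log2) between HI and MI. Pdia3 stood at -0.27, Pdia4 at -0.16 and Pdia6 at -0.13, while P4hb, which is also the shared subunit of collagen prolyl 4-hydroxylases, stood at 0.09. These values were -0.17, -0.17, -0.25 and -0.04 with neither MI1 nor MI3. Of the 3 genes of the lectin cycle, Calr (calreticulin, which holds newly glycosylated proteins) had 933, 907 and 936 CPM in HI tumours and 1006.5, 1012 and 1129.8 CPM in HC tumours. MI tumours had 1099.9, 1015 and 895 CPM, and MC tumours 955, 1029 and 918 CPM. Every HI tumour was below every HC tumour, at a log2 change of -0.18 ± 0.09 (SE; edgeR, adjusted p = 0.964). Canx, the membrane-bound partner of calreticulin, had 1063 CPM in MI3 and 541 to 716 CPM in the other 11 libraries, and its log2 change of -0.39 in HI against MI became -0.19 after adjustment for GC content and 0.06 with neither MI1 nor MI3. Uggt1, which checks the fold of glycoproteins, stood at -0.09, and at -0.19 with neither.

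The sensors had smaller log2 changes than Xbp1 in HI against MI. Ern1 had 60.1, 62.9 and 65.2 CPM in HI tumours, 59.3, 57.9 and 61.5 CPM in HC tumours, 56.9, 57.0 and 84.6 CPM in MI tumours and 65.4, 61.3 and 60.6 CPM in MC tumours. Apart from MI3, the 11 libraries stayed between 56.9 and 65.4 CPM, and all pairs of groups overlapped. Atf6 had 119, 88.3 and 93.0 CPM in HI tumours, 95.6, 103 and 101 CPM in HC tumours, 100.3, 88.2 and 90.2 CPM in MI tumours and 97.4, 96.6 and 81.6 CPM in MC tumours. Again all pairs of groups overlapped, and its log2 change of 0.11 ± 0.12 in HI against MI (SE; edgeR, adjusted p = 0.663) made it 1 of 3 members on the higher side there, with P4hb and Derl1. Atf6 stood at 0.17 and Ern1 at 0.13 with neither MI1 nor MI3.

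Eif2ak3 was the member with the smallest unadjusted p in MI against MC. It had 32.0, 31.9 and 32.9 CPM in HI tumours and 32.96, 27.5 and 31.5 CPM in HC tumours. It had 34.2, 35.7 and 31.5 CPM in MI tumours, against 28.01, 29.5 and 26.5 CPM in MC tumours. Each MI tumour was above each MC tumour, at a log2 change of 0.27 ± 0.09 (SE; edgeR, unadjusted p = 0.00965, adjusted p = 0.492), and unlike Dnajb9 its highest value was in MI2. HI and HC overlapped, with a log2 change of 0.07 ± 0.09.

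Xbp1 had 139.5, 181 and 173 CPM in HI tumours, 177, 169.9 and 197 CPM in HC tumours, 211, 215 and 215 CPM in MI tumours and 173, 174 and 235 CPM in MC tumours. Every HI tumour was below every MI tumour, the MI tumours were close together, and leaving out any single MI library kept the value between -0.40 and -0.37. The log2 change in HI against MI was -0.38 ± 0.13 (SE; edgeR, unadjusted p = 0.0142, adjusted p = 0.258). It was -0.40 without MI1, -0.38 without MI3, -0.40 with neither and -0.40 after adjustment for GC content. HC and MC overlapped, MC3 held the highest value of all, and the log2 change was -0.10 ± 0.13.

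Among the 7 genes of ER-associated degradation, 6 were below 0 in HI against MI, with a median of -0.22. Herpud1, a scaffold of the degradation complex, had 49.4, 46.1 and 40.7 CPM in HI tumours and 54.5, 50.7 and 59.1 CPM in HC tumours. It had 65.9, 55.5 and 49.7 CPM in MI tumours and 44.4, 52.6 and 52.9 CPM in MC tumours. HI tumours were below all HC and all MI tumours, although HI1 and MI3 were almost level, and overlapped MC. The log2 change was -0.33 ± 0.12 in HI against MI (SE; edgeR, adjusted p = 0.269), -0.27 ± 0.12 in HI against HC (adjusted p = 0.964) and -0.46 ± 0.17 for the interaction (unadjusted p = 0.0191, adjusted p = 0.596). With neither MI1 nor MI3, the HI against MI value was -0.30.

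Edem1, a lectin that hands misfolded glycoproteins to the degradation complex, had 114, 98.2 and 104 CPM in HI tumours, 105, 112 and 96.5 CPM in HC tumours, 165, 109 and 126 CPM in MI tumours and 109, 109 and 97.8 CPM in MC tumours. MI1 and MI3 were above all other libraries and MI2 was not. Its log2 change of -0.34 ± 0.13 in HI against MI (SE; edgeR, adjusted p = 0.285) became -0.06 with neither. Derl3, a channel-like protein of the same complex, had 0.365, 0.222 and 0.0996 CPM in HI tumours and 0.764, 0.177 and 0.390 CPM in HC tumours. It had 8.65, 0.340 and 0.228 CPM in MI tumours and 0.151, 0.227 and 0.331 CPM in MC tumours, where 3 counts equal 0.0750 to 0.0948 CPM. MI1 stood alone, and the log2 change of -3.73 ± 1.217 in HI against MI (SE; edgeR, adjusted p = 0.243) was -0.33 without it. Averaged over both treatments, the altitude value of Derl3 turned from -1.42 to 0.28 without MI1. Of the other degradation genes, Sel1l and Syvn1, the core of the HRD1 ubiquitin ligase, had log2 changes of -0.12 and -0.22 in HI against MI, Derl2 of -0.18 and Derl1 of 0.03. With neither MI1 nor MI3, these were 0.01, -0.21, -0.02 and -0.02, and Syvn1 stood at -0.13 without MI1.

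All 5 genes of translocation and export were below 0 in HI against MI, with a median of -0.23. Sec24d, a cargo-binding subunit of the COPII coat that carries proteins out of the ER, had 94.0, 97.7 and 94.1 CPM in HI tumours and 89.5, 115 and 89.8 CPM in HC tumours. It had 139.7, 109 and 138 CPM in MI tumours and 117, 131 and 99.7 CPM in MC tumours. Each HI tumour was below each MI and each MC tumour, and HC overlapped MC through HC2. The log2 change was -0.44 ± 0.13 in HI against MI (SE; edgeR, unadjusted p = 0.00704, adjusted p = 0.228), -0.39 without MI1, -0.39 without MI3 and -0.21 with neither. Averaged over both treatments it was -0.34 ± 0.09 (edgeR, adjusted p = 0.121), the smallest adjusted p of any member. DESeq2 called it there (adjusted p = 0.0305) along with 5.67% of all genes.

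Sec61b, a subunit of the translocation channel, had 53.9, 56.2 and 56.1 CPM in HI tumours and 59.3, 69.8 and 55.7 CPM in HC tumours. It had 67.8, 61.0 and 59.9 CPM in MI tumours and 69.5, 63.5 and 73.2 CPM in MC tumours. The HI tumours were below all MI and MC tumours, and its altitude value averaged over both treatments was -0.17 ± 0.07 (SE; edgeR, unadjusted p = 0.0272, adjusted p = 0.228). The translocon-associated subunits Ssr1, Ssr2 and Ssr3 had log2 changes of -0.23, -0.08 and -0.28 in HI against MI. Without MI1 and MI3, these were 0.11, -0.20 and 0.04. Ssr1 and Ssr3 were highest in MI3, and the value of Ssr3 was 0.03 after adjustment for GC content.

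The difference between the altitude responses with IOX2 and with vehicle was tested as an interaction. The interaction was below 0 for 30 of 33 genes, against 52.4% of all genes, with a median of -0.20 against -0.02, and 4 had an unadjusted p under 0.05, against 4.17% of all genes, namely Herpud1, Derl3, Dnajb9 and Hsp90b1, with no adjusted p under 0.596 (edgeR). With neither MI1 nor MI3, these 4 had interaction values of -0.44, -1.48, -0.21 and -0.35. The 2 altitude comparisons have no library in common. Hspa5, Calr, Hsp90b1 and Herpud1 had values below 0 with IOX2 and above 0 with vehicle, while Sdf2l1, Sec24d and Sec61b were below 0 in both. Averaged over both treatments, altitude gave values below 0 for 28 of 33 genes, against 53.8% of all genes, with a median of -0.10. An unadjusted p under 0.05 on the lower side was reached by 6, against 8.65% of all genes, namely Sec24d, Sdf2l1, Dnajc3, Dnajb9, Xbp1 and Sec61b. The average was -0.22 for Sec24d, -0.18 for Dnajc3 and -0.18 for Dnajb9 with neither MI1 nor MI3. IOX2 averaged over both altitudes gave a median of 0.03, with 21 of 33 above 0, against 51.7% of all genes.

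**Figure D3:**
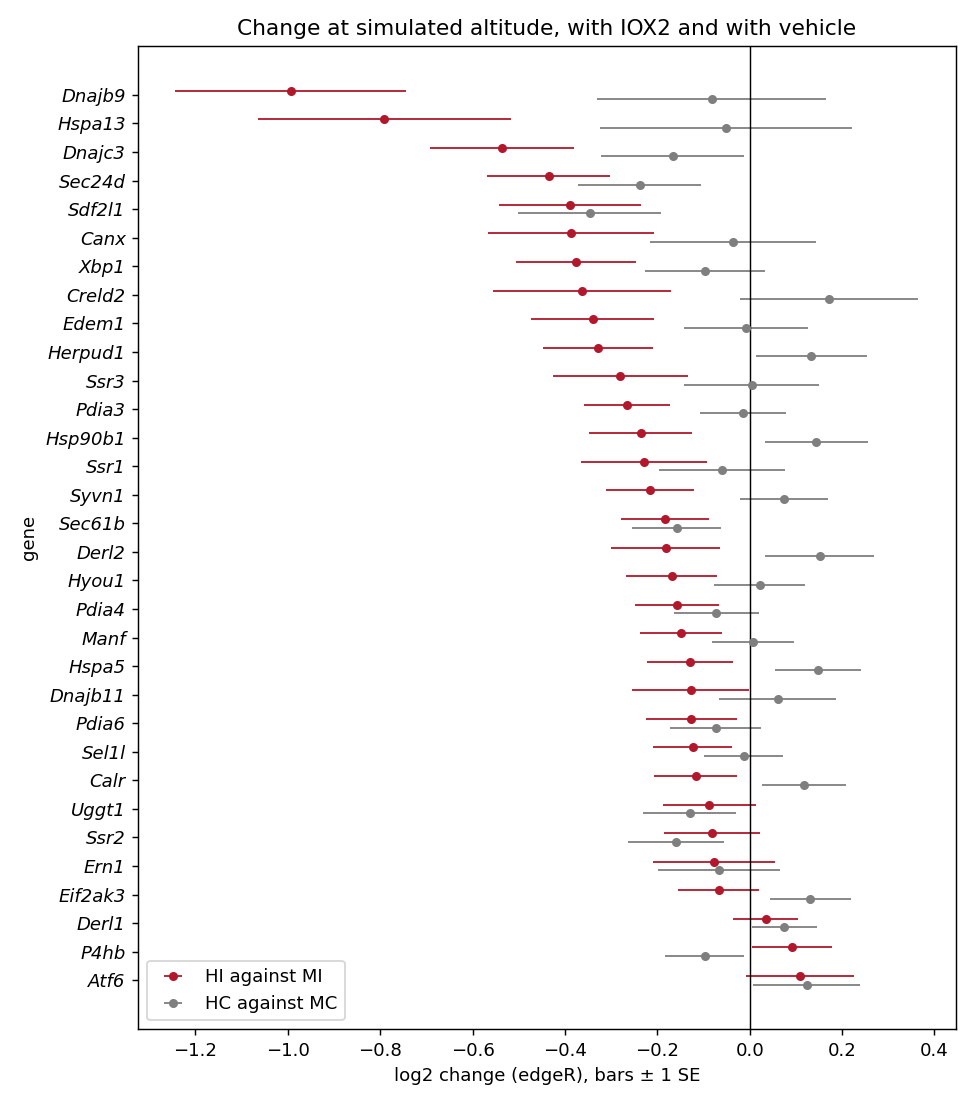
Log2 change at simulated altitude with its SE (edgeR), in IOX2-treated tumours (HI against MI, red) and vehicle-treated tumours (HC against MC, grey), for 32 genes, without Derl3 at -3.73 and 0.88. The red points lie left of 0 for all but Derl1, P4hb and Atf6, and the grey points scatter around 0.

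The highest of the 12 values fell in MI1 for 11 of the 33 genes, against 11.5% of all genes. It fell in MI3 for 10 of the 33, against 20.1% of all genes. Together these were 21 of 33, against 31.6% of all genes. The MI1 genes were Hsp90b1, Dnajb11, Sdf2l1, Herpud1, Pdia4, Creld2, Hyou1, Syvn1, Edem1, Derl3 and Sec24d. In MI1, 30 of the 33 genes were above their own means, and the median of the 33 was 0.16. This library also had 701 CPM over the 9 plasma-cell markers, against 25.6 to 48.4 CPM in the others, with 6 of the 9 at their highest there. Of the defining plasma-cell markers, Jchain had 559 CPM in MI1 and at most 17.4 CPM elsewhere, Mzb1 had 43.7 CPM and at most 0.583 CPM elsewhere, and Tnfrsf17 was at or near 0 in all libraries. Plasma cells are known to be rich in ER chaperones. The part of these cells, or of the other cell types whose markers were highest in MI1, in the values of MI1 was not tested. Without MI1, 29 of 33 genes were below 0 in HI against MI, with a median of -0.15 and 7 at an unadjusted p under 0.05 on the lower side, against 7.94% of all genes.

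In MI3, 14 of the 33 genes were above their own means, and the median of the 33 was -0.05. The MI3 genes were Dnajb9, Dnajc3, Pdia3, Canx, Sel1l, Derl2, Ern1, Ssr1, Ssr3 and Hspa13. Their transcripts had a median GC content of 45.7% and a median length of 4660.5 bases, against 51.6% and 2759 bases for the MI1 genes, while all tested genes had medians of 50.8% and 3537 bases. The part of GC content and length in the values of single MI3 genes was not tested beyond the adjustment for GC content, under which 29 of 33 genes were below 0 in HI against MI, with a median of -0.18 and 12 at an unadjusted p under 0.05, against 8.32% of all genes. Without MI3, 29 of 33 were below 0, with a median of -0.22 and 16 at an unadjusted p under 0.05, against 6.32% of all genes. With neither MI1 nor MI3, MI2 stood alone for its group and was assumed to vary like the other groups. Then 26 of 33 genes were below 0, with a median of -0.17, and none had an unadjusted p under 0.05, against 2.07% of all genes on the lower side. The same omission took the median in MI against MC to 0.05 and the interaction median to -0.10.

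**Figure D4:**
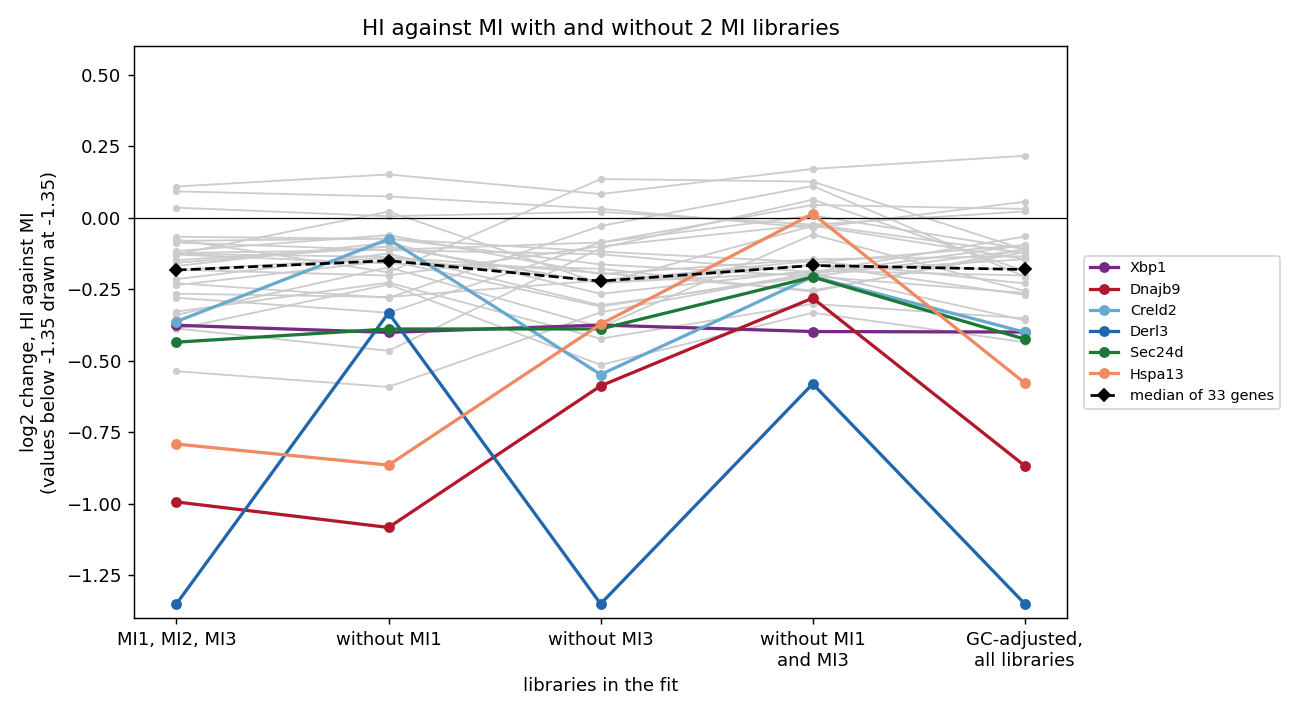
Log2 change of each of the 33 genes in HI against MI (edgeR), with all MI libraries, without MI1, without MI3, with neither, and with adjustment for GC content. The median (dashed) stays between -0.22 and -0.15 and Xbp1 between -0.40 and -0.38, while Dnajb9, Hspa13, Creld2 and Derl3 move with the library left out.

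Other cell markers also differed between the groups. Summed over 7 epithelial markers, HI tumours had 3378 to 3824 CPM and MI tumours 2940.1 to 3313 CPM, without overlap, against 3654 to 4019 CPM in HC and 3352 to 3508 CPM in MC tumours. Over 4 endothelial markers, HI tumours had 190.2 to 206 CPM and MI tumours 254 to 347 CPM, against 232 to 285.2 CPM in HC and 257 to 267 CPM in MC tumours. Over 5 erythroid markers, HI tumours had 155 to 297 CPM and MI tumours 80.6 to 114 CPM, without overlap, against 52.5 to 97.9 CPM in HC and 18.3 to 19.8 CPM in MC tumours. Over 6 neutrophil markers, HI tumours had 168 to 195 CPM and MI tumours 93.1 to 166 CPM, again without overlap, against 63.4 to 281 CPM in HC and 85.7 to 119.7 CPM in MC tumours. Sums over 7 fibroblast markers overlapped between all groups. The part of cell mixture in the ER gene values was not tested.

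Genes with and without an ER stress element in the promoter window were set side by side as a description. In HI against MI, all 11 genes with the element or its short form were below 0, against 52.2% of all genes, with a median of -0.24. So were 15 of the 16 without, with a median of -0.21. Among the 11, Dnajb11 stood at 0.02 without MI1 and Canx at 0.06 with neither MI1 nor MI3. In HI against HC, all 11 with an element were below 0, against 49.6% of all genes, with a median of -0.18. Of the 16 without, 9 were below 0, with a median of -0.01. No member had an adjusted p under 0.964 in that comparison (edgeR). In HC against MC, 3 of the 11 with an element were below 0, against 52.2% of all genes, with a median of 0.12. Of the 16 without, 13 were below 0, with a median of -0.07. The 2 last comparisons share the HC tumours. The other 6 genes, Manf, Hyou1, Derl1, Atf6, Ssr2 and Hspa13, had no window. Of these, 4 were below 0 in HI against MI, 5 in HI against HC and 2 in HC against MC. Their medians were -0.12, -0.09 and 0.01. Hspa5, Hsp90b1 and Calr, whose elements are printed above, are among the 11. A match in these windows is not a measured binding site.

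The rest of the pathway was taken from fixed lists, and none of its genes was called by edgeR in any of the 7 comparisons. The smallest adjusted p in HI against MI was 0.193, for Fkbp14. Of 26 other folding factors tested, 19 were below 0 in HI against MI, against 52.2% of all genes, with a median of -0.07. Of these, 4 had an unadjusted p under 0.05, against 8.43% of all genes. Without MI1 and MI3, 15 of the 26 were below 0, with a median of -0.02. Fkbp14, a prolyl isomerase acting on collagen, had 11.0, 11.5 and 11.0 CPM in HI tumours, against 20.1, 13.7 and 27.7 CPM in MI tumours, at a log2 change of -0.87 ± 0.22, and of -0.30 with neither. The reductase Dnajc10 stood at -0.37 ± 0.10, and at -0.16 with neither, and the oxidase Qsox1 at -0.36 ± 0.12. Of 23 other genes of translocation and N-glycan transfer, 20 were below 0, with a median of -0.07, led by Tram1 (-0.71), Sec62 (-0.52) and Magt1 (-0.40). Without these 2 libraries, 15 of the 23 were below 0, and these 3 genes stood at 0.08, 0.15 and -0.10. Of 11 genes of glycan trimming and cargo receptors, 10 were below 0, with a median of -0.08, among them the cargo receptor Lman1 (-0.23), Kdelr2 (-0.24), which returns escaped chaperones to the ER, and Uggt2 (-0.51), a relative of Uggt1. All 11 were below 0 with neither MI1 nor MI3, with these 3 at -0.07, -0.05 and -0.09.

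The other lists were more mixed. Of 22 other degradation genes, 10 were below 0, with a median of 0.02, and Ufd1 (0.31) and Ube2j2 (0.23) stood opposite to Edem3 (-0.66), which was at -0.02 with neither MI1 nor MI3. Of 11 other COPII genes, 8 were below 0, with a median of -0.01, and Sec24a (-0.42), Sar1b (-0.28) and Sec23a (-0.16) had the smallest unadjusted p. With neither, these 3 stood at 0.16, 0.17 and -0.05. Of 7 other sensors and proteases tested, 5 were below 0, and the transcription factors Creb3l2, Creb3l1 and Creb3 stood at -0.35, -0.38 and -0.19, and at -0.20, 0.0049 and -0.23 with neither.

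Most output genes of the PERK arm lay on the other side, although activity of PERK was not measured here. In HI against MI, 9 of 10 were above 0, against 47.8% of all genes, with a median of 0.33. In HC against MC, 8 of 10 were, against 47.8% of all genes, with a median of 0.25 and a lowest value of -0.53. There, 3 of the 10 had an unadjusted p under 0.05 on the higher side (edgeR), against 937 of all 15269 genes. On the lower side 1 did, against 892 of all genes. Without MI1 and MI3, 8 of 10 were above 0 in HI against MI, with a median of 0.27. Trib3, a pseudokinase induced by Atf4 and Ddit3, had 58.3, 46.0 and 41.9 CPM in HI tumours, against 26.7, 34.2 and 29.4 CPM in MI tumours, without overlap, at a log2 change of 0.69 ± 0.19 (SE; edgeR, unadjusted p = 0.00400, adjusted p = 0.213). Ppp1r15a, which ends the translation block, had 34.8, 19.3 and 16.8 CPM in HI tumours, against 16.3, 15.2 and 11.8 CPM in MI tumours, at a log2 change of 0.71 ± 0.27 (adjusted p = 0.276), and Sesn2 stood at 0.36 ± 0.18. Averaged over both treatments, 8 of the 10 were above 0 at altitude, against 46.2% of all genes, with a median of 0.40. Of the 10, 5 had an unadjusted p under 0.05 on the higher side, against 8.64% of all genes. On the lower side 1 did, against 8.65% of all genes, and no adjusted p was under 0.122 (edgeR). The lowest value of the 10 was -0.38. Eif2ak3, which encodes PERK itself, had a log2 change of 0.03 ± 0.06 in the same average. With neither MI1 nor MI3, 8 of the 10 were above 0 in this average, while Nupr1 stood at -0.46 and Cebpb at -0.18.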

How the data were processed

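Per the labels, RNA of each tumour gave reads of 150 bases at both ends of a fragment. HISAT2 2.1.0, fastp 0.20.1, HTSeq 0.11.2, R 3.5.1 and DESeq2 1.22.2 appear in the submitters' processing notes together with build GRCm39, with no role stated. Neither the annotation nor whether counting used strand is given in the sources used here, so overlapping and antisense genes may share reads. The deposited count table holds the authors' raw whole-number counts, and the deposited FPKM table their values per gene length and library total. The FPKM values were used here to compare levels between genes and in alternative fits with limma.

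Counts were fitted in R 4.3.3 with edgeR 4.0.16 (TMM, filterByExpr, quasi-likelihood test, all 12 libraries, 1 mean per group) and adjusted by Benjamini-Hochberg over 15269 genes, with a threshold of 0.05. The procedure was also run on simulated counts with known changes in HI only. These held no library that stood apart like MI1 or MI3, so that run cannot show how the procedure handles such libraries. The 7 comparisons were HI against MI, HC against MC, MI against MC, HI against HC, their interaction, and altitude and IOX2 each averaged over the other. The 33 genes and all lists were chosen with earlier results of these data known, so no p is given for a list. Genes given in every tumour were the leading chaperones, the sensors, Xbp1, Dnajb9, and in each comparison of 2 groups the 4 members with the smallest unadjusted p. In the other lists, up to 3 genes with the smallest unadjusted p in HI against MI are named. An exact test of 3 against 3 cannot go below 0.1. Floors of 3 counts cover counting error only.

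Alternatives were DESeq2 1.42.0, its size factors, limma 3.58.1 (voom, and log2 of FPKM plus 0.1 or 1), other filters, a fit of the 2 groups compared alone, a replicate block, and each library left out. Leaving out MI1 and MI3 together and adjusting for GC content (from GENCODE transcripts of GRCm38, 94.2% of tested genes) were chosen after seeing the data. Same-numbered libraries deviated together in HC against MC, with correlations of 0.28, 0.15 and 0.21 across genes, and not in every pair elsewhere. Of 28 promoter windows, 24 had the bases after their start in a GENCODE transcript. Protein sequences were not used here.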

Additional observations from a re-analysis of the deposited data

How the results depend on the processing

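By edgeR, 0 of 33 genes were called in each of the 7 comparisons. The exceptions among the alternatives were in HI against MI and in the altitude average. In HI against MI, DESeq2 called 1 gene (Dnajb9), against 2.5% of all genes. DESeq2 gave no p for Derl3 in any of the 7 comparisons, so Derl3 could not be called by it. Without MI replicate 2, edgeR called 3 there (Dnajb9, Dnajc3 and Hspa13), against 3.34% of all genes. In the altitude average, DESeq2 called 2 (Sdf2l1 and Sec24d), against 5.67% of all genes. Without MI replicate 2, edgeR called 1 in that average (Dnajb9, adjusted p = 0.0407), against 1.3% of all genes. Leaving out single libraries thus gave 0 to 3 calls in HI against MI and 0 to 1 in the altitude average. The median of the 33 genes over the same omissions ran from -0.22 to -0.15 in HI against MI, 0.09 to 0.19 in MI against MC, -0.06 to 0.01 in HC against MC, -0.12 to -0.04 in HI against HC, -0.26 to -0.16 for the interaction, -0.12 to -0.08 for the altitude average and -0.02 to 0.04 for the IOX2 average. With neither MI1 nor MI3, an omission chosen after seeing the data, the median was 0.0464 in MI against MC and -0.10 for the interaction. With the replicate number as a block, 0 of 33 genes were called in each of the 7 comparisons, so the block changed no call among the 33. The medians were then -0.19 in HI against MI, 0.15 in MI against MC and -0.02 in HC against MC. The labels give replicate numbers but state no pairing. Over all genes, DESeq2 called 381 in HI against MI, 314 in HC against MC, 22 in HI against HC, 20 in MI against MC, 32 for the interaction, 866 in the altitude average and 11 in the IOX2 average, where edgeR called 0, 0, 0, 4, 0, 76 and 6. The block gave 155 calls in the altitude average and 13 in HC against MC, no filter gave 166 in the altitude average, and leaving out MI2 gave 520 in HI against MI. The cause was not tested.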
